A study of Bos taurus with 18 samples.

Results

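The genes described here are 10 transporters and markers of the kidney epithelium, UMOD, SLC12A1, SLC12A3, AQP1, AQP2, LRP2, CUBN, SLC34A1, KL and PAX8, of 24596 genes in a table of RNA sequencing counts from cattle cells. They were chosen because earlier work on these counts had found kidney transcripts in 1 library, so their levels in that library are a description and carry no test. Each symbol matched 1 row of the table. The series holds 18 libraries from 2 lines labelled as fibroblasts, 1 Holstein-like and 1 Simmental-like, that were kept in culture for a long time. Each line was sampled at 3 stages with 3 libraries each. Holstein-like libraries come from the primary culture PBF-15, the senescent culture Sn-BF-15 and the immortalized culture HUN-BF-15, and Simmental-like libraries from PBF-13, Sn-BF-13 and HUN-BF-13. The columns of the table are named otherwise. For the Simmental-like line they are BDF-20-3B-4 at the primary, BDF-20-MultiXray-Ctrl at the senescent and BF-13 at the immortalized stage, and only the last of these matches the line's number. For the Holstein-like line the primary columns are named BEF, the senescent ones BF-15-P9 and the immortalized ones BF-15-P23, each marked as a rerun. What the X-ray control in the senescent name stands for is not given in these sources. A change between stages and a change between named cultures cannot be told apart. The library that carries the kidney transcripts is the one labelled Holstein-like immortalized replicate 2, written as Holstein-like immortalized library 2 below.

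A nephron is a tube whose segments each express their own transport proteins. The proximal tubule takes back proteins, phosphate, sugars and most of the water, the thick ascending limb and the distal convoluted tubule take back salt through separate cotransporters, and the collecting duct sets the final water content under the control of vasopressin. The 10 genes mark these segments in turn.

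The labels call all 18 libraries fibroblasts, and a list of fibroblast genes went against that in 8 of the 9 Holstein-like ones. The 8 genes of a fibroblast culture list (COL1A1, COL1A2, COL3A1, FN1, VIM, POSTN, THY1 and MKI67) summed to between 39938 and 62682 CPM in the 9 Simmental-like libraries (CPM is counts per 1000000 counts of a library). They summed to 61496 CPM in Holstein-like immortalized library 3, the ninth, and to 807 CPM in Holstein-like immortalized library 2. Immortalized library 3 also held 5510 CPM of an endothelium and red cell list and 2690 CPM of a leukocyte list. Simmental-like libraries held at most 14.9 and 2.37 CPM of these. Skeletal muscle genes led in the 3 Holstein-like primary libraries with 173565 to 175197 CPM, and heart muscle genes reached 18197 CPM in senescent library 1. Liver genes reached up to 175007 CPM in senescent libraries 2 and 3 and immortalized library 1. Total counts, in units of 1000000, were 18.2 to 23.2 for Simmental-like libraries, 11 to 14.1 for senescent and immortalized Holstein-like libraries and 1.42 to 1.47 for Holstein-like primary ones. The limit that a count of 0 allows, taken as 3 counts, ranged from 0.129 CPM at the greatest depth to 2.11 CPM at the lowest. These floors, and the 95% Poisson intervals given with ratios, cover counting error only. Chi-square per gene between libraries of a stage, which is about 1 for counting error alone, was 1.20 to 1.22 among the 3 Holstein-like primary libraries. It was 197 to 1114 among the Holstein-like senescent and 508 to 911 among the Holstein-like immortalized ones. Among Simmental-like libraries it was 39.8 to 352.5 at the primary, 1.34 to 3.80 at the senescent and 6.32 to 23.2 at the immortalized stage.

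All 10 genes were highest in Holstein-like immortalized library 2. Together they took 14270 CPM there, which is 1.43% of its counts, against 506 CPM in the next library, Holstein-like senescent library 1. The other immortalized Holstein-like libraries, which share its label, did not carry them at such levels. For 9 of the 10 genes, all but AQP1, the level was at least 10-fold above that of every other library, with each library that held fewer than 3 counts set to 3 counts. The same was true of 171 of 19419 genes with a count, or 0.881%, and because the genes were chosen from this contrast nothing is read from that comparison. 1 library has no replicate check. In bulk RNA, fewer cells of a type and less RNA per cell cannot be told apart, so the values below are levels in the library as a whole.

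**Figure D1:**
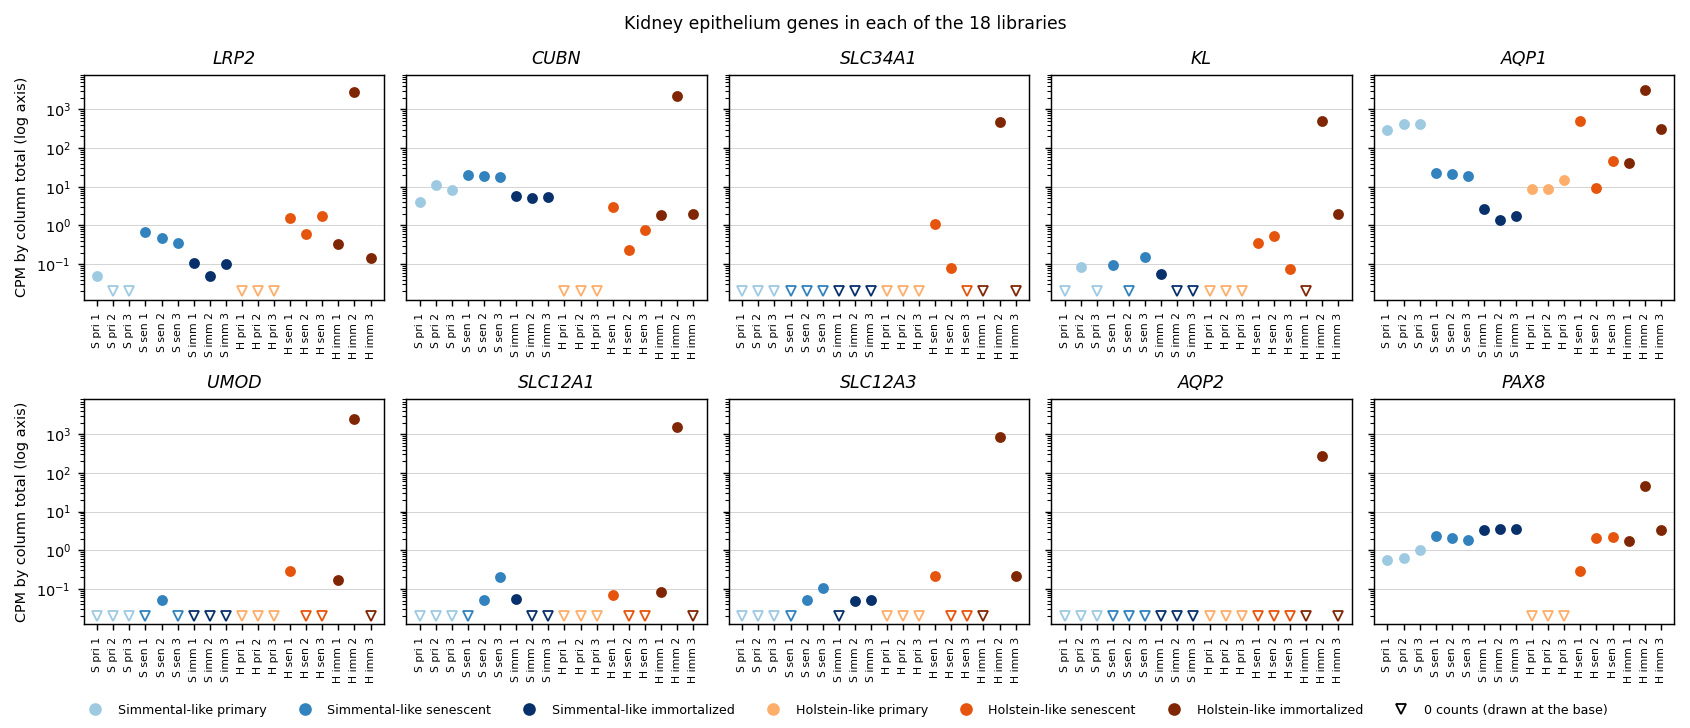
Level of each of the 10 genes (CPM by column total, log axis) in the 18 libraries, 1 point per library, coloured by line and stage, with open triangles at the base for 0 counts. S is Simmental-like, H is Holstein-like, pri, sen and imm are the primary, senescent and immortalized stages. The point for H imm 2 is the highest in every panel, and only in the AQP1 panel do other libraries come within 10-fold of it.

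The proximal tubule genes were present at high counts. LRP2, which encodes megalin, the large endocytic receptor of the proximal tubule brush border, had 30841 counts (2808 CPM) in Holstein-like immortalized library 2. The other immortalized Holstein-like libraries had 4 and 2 counts, the senescent ones 22, 8 and 24, and the 3 primary ones 0. Simmental-like libraries had 1, 0 and 0 counts in the primary, 14, 9 and 7 in the senescent and 2, 1 and 2 in the immortalized stage. The highest of the 17 others was Holstein-like senescent library 3, and LRP2 was 1559-fold higher than there (95% counting interval 1048 to 2434). In 10 of the other 17 libraries LRP2 was under 3 counts.

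CUBN encodes cubilin, the receptor of the cobalamin carrier in the gut, which works with megalin in protein uptake in the kidney. It had 24180 counts (2201 CPM) in Holstein-like immortalized library 2, against 22 and 28 counts in the other immortalized Holstein-like libraries, 43, 3 and 10 in the senescent and 0 in the primary ones. Unlike LRP2, CUBN was also detected in every Simmental-like library, with 80, 259 and 151 counts in the primary, 419, 365 and 353 in the senescent and 106, 104 and 110 in the immortalized stage. Its highest other level was 20.3 CPM in Simmental-like senescent library 1, and the ratio to it was 109 (98.6 to 120). In the Simmental-like line both receptors had their highest counts in the senescent libraries, with 353 to 419 for cubilin and 7 to 14 for megalin.

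SLC34A1 encodes the sodium phosphate cotransporter NaPi-IIa of the proximal tubule. It had 5151 counts (469 CPM) in Holstein-like immortalized library 2, 15 in senescent library 1, 1 in senescent library 2 and 0 in the other 15 libraries. The ratio to senescent library 1 was 440 (267 to 787), and 223 with the 3-count floor.

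AQP1, the water channel of the proximal tubule and the thin descending limb that is also made by endothelium and red cells, was the exception. It had 34795 counts (3168 CPM) in Holstein-like immortalized library 2, and 480 and 4334 counts (40.3 and 310 CPM) in immortalized libraries 1 and 3. The senescent Holstein-like libraries had 500, 9.53 and 45.6 CPM and the primary ones 8.91, 8.86 and 14.7 CPM. Simmental-like libraries had 286, 426 and 426 CPM in the primary, 23.4, 20.9 and 19.1 CPM in the senescent and 2.69, 1.35 and 1.72 CPM in the immortalized stage. AQP1 was thus detected in all 18 libraries, and its 59.6% share of the CPM summed over them was the lowest of the 10 genes. The ratio to the next library, Holstein-like senescent library 1, was 6.34 (6.18 to 6.51), and 3.55 with TMM scaling, which corrects for a few genes that take a large share of a library. The endothelium and red cell list stood at 761 CPM in Holstein-like immortalized library 2 and was highest, at 5510 CPM, in immortalized library 3, where AQP1 was 310 CPM. Its part in the AQP1 level was not tested.

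The thick ascending limb genes were close to all or nothing. UMOD encodes uromodulin, the protein that this segment secretes into the urine. It had 26939 counts (2452 CPM) in Holstein-like immortalized library 2. Of the other 17 libraries 14 had 0 counts, and the rest were Holstein-like senescent library 1 with 4 counts, immortalized library 1 with 2 and Simmental-like senescent library 2 with 1. The ratio to Holstein-like senescent library 1 was 8636, with a wide interval of 3372 to 31697 because 4 counts set it. With every library under 3 counts set to 3 counts it was 1164, since the shallow Holstein-like primary libraries then set it. SLC12A1 encodes NKCC2, the sodium potassium chloride cotransporter that loop diuretics block. It had 16582 counts (1510 CPM), while 12 of the other 17 libraries had 0. Simmental-like senescent libraries 2 and 3 had 1 and 4 counts, and Simmental-like immortalized library 1, Holstein-like senescent library 1 and Holstein-like immortalized library 1 had 1 each. The ratio to the highest of these was 7325 (2860 to 26888), and 717 with the 3-count floor.

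Of the genes of the distal convoluted tubule, SLC12A3, which encodes NCC, the thiazide-sensitive sodium chloride cotransporter, had 9275 counts (844 CPM) in Holstein-like immortalized library 2. Holstein-like senescent library 1 and immortalized library 3 had 3 counts each, Simmental-like senescent libraries 2 and 3 had 1 and 2, Simmental-like immortalized libraries 2 and 3 had 1 each, and 11 libraries had 0. The ratio to Holstein-like immortalized library 3 was 3933 (1345 to 19073), and 401 with the 3-count floor. KL encodes Klotho, the coreceptor for FGF23 that is most abundant in distal tubule cells. It had 5440 counts (495 CPM), against 28 counts (2.00 CPM) in Holstein-like immortalized library 3, 5, 7 and 1 in the senescent Holstein-like libraries and at most 3 in any Simmental-like library. The ratio to immortalized library 3 was 247 (171 to 372).

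AQP2, the vasopressin-regulated water channel of the collecting duct principal cell, had 3042 counts (277 CPM) in Holstein-like immortalized library 2 and 0 counts in the other 17 libraries. The level was at least 131-fold higher than the 3-count floor of the smallest library, Holstein-like primary library 3. Without the 3 shallow Holstein-like primary libraries, it was at least 1101-fold higher.

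PAX8, a paired-box transcription factor that is needed for nephron formation and stays on in the tubule and in the thyroid, was the gene with the smallest ratio after AQP1. It had 505 counts (46 CPM) in Holstein-like immortalized library 2, 21 and 47 counts in immortalized libraries 1 and 3, 4, 27 and 29 in the senescent and 0 in the primary ones. Simmental-like libraries had 11, 15 and 19 counts in the primary, 47, 39 and 36 in the senescent and 62, 72 and 69 in the immortalized stage. The ratio to the highest of these, Simmental-like immortalized library 2, was 12.8 (9.99 to 16.6). The 4 measured genes of a thyroid list (TG, TSHR, FOXE1 and NKX2-1) had no counts in Holstein-like immortalized library 2.

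The ratios depended on the scaling for some of these genes. With TMM scaling they were 4840 for UMOD, 2222 for SLC12A3, 933 for LRP2 and 247 for SLC34A1, and at least 59.1 for AQP2. For SLC12A1, CUBN, KL and PAX8 the ratio moved by less than 1.5 times.

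Holstein-like senescent library 1 held counts of 9 of the 10 genes, AQP2 being at 0. As a share of the level in Holstein-like immortalized library 2, its trace was 0.0047% for SLC12A1, 0.0116% for UMOD, 0.0252% for SLC12A3, 0.0556% for LRP2, 0.139% for CUBN and 0.227% for SLC34A1. These shares differed by more than 10-fold between genes, on 1 to 43 counts each, and the lowest rests on 1 count. For the other genes with counts it was 0.0717% for KL on 5 counts, 0.618% for PAX8 on 4 counts and 15.8% for AQP1 on 7037 counts.

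By the share of a gene's CPM summed over all 18 libraries that fell in Holstein-like immortalized library 2, the genes most like the 10 included several of the collecting duct and the distal nephron. Of 8850 genes with a given symbol and at least 10 CPM there, 51 had a share of at least 99% and 128 a share of at least 90%. The 10 genes held rank 1 (AQP2), 9 (UMOD), 11 (SLC12A1), 15 (SLC12A3), 25 (LRP2), 26 (SLC34A1), 45 (KL), 90 (CUBN), 269 (PAX8) and 278 (AQP1). The top 10 also held SCNN1G, the gamma subunit of the epithelial sodium channel, CLDN8, a claudin of the distal nephron, FOXI1, the transcription factor of intercalated cells, ATP6V1G3, a kidney subunit of the proton pump, GP2, a relative of UMOD, CALB1, the calcium binding protein of the distal convoluted tubule, CLRN3 and TMEM252. AQP2, SCNN1G, CLDN8, FOXI1, CLRN3, TMEM252, ATP6V1G3 and GP2 had no count in any of the other 17 libraries. All shares are taken over the same 18 libraries and are given with no test.

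To ask which segments the library carried, 6 lists of other segment markers were read in it, with 89 of their genes in the table. Of these, 86 had at least 3 counts in Holstein-like immortalized library 2, 68 were highest there, and 35 were at least 10-fold above every other library, against 14.3% of genes with a count that were highest there and the 0.881% given above. No segment list was without genes of that kind. Lists were chosen with earlier results known, so these counts are a description.

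**Figure D2:**
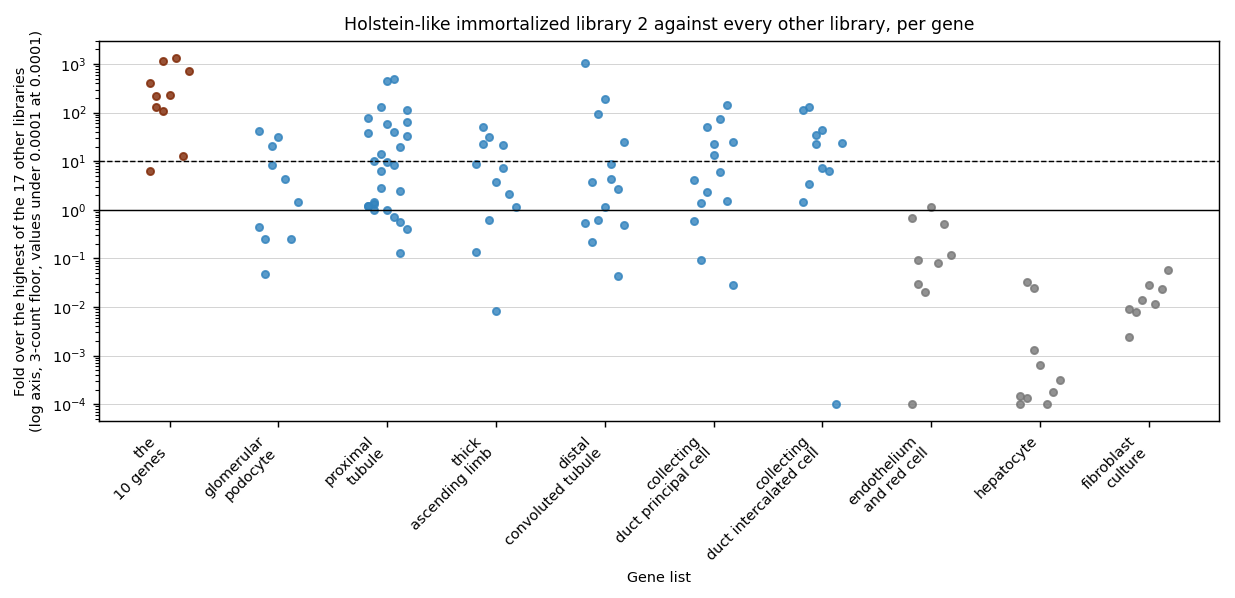
Fold of each gene in Holstein-like immortalized library 2 over the highest of the other 17 libraries (log axis, libraries under 3 counts set to 3 counts), by gene list, 1 point per gene. The solid line is no difference and the dashed line 10-fold. 35 of 89 segment genes and 9 of the 10 genes lie on or above the dashed line, while no gene of the endothelial, hepatocyte or fibroblast lists does.

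Of the proximal tubule genes measured, 23 of 28 were highest in this library and 12 were at least 10-fold above the rest. SLC13A3, a dicarboxylate transporter, had 2294 CPM against at most 29.2 CPM elsewhere, and PDZK1, a scaffold of brush border transporters, 1729 CPM against 210 CPM. SLC22A6, the organic anion transporter OAT1, had 1051 CPM against at most 0.639 CPM elsewhere, and DPEP1, a brush border dipeptidase, 928 CPM against 0.142 CPM. SLC5A12, a lactate transporter, had 1314 CPM against 10.1 CPM, and SLC5A2, the glucose transporter SGLT2, 470 CPM against 8.00 CPM. PCK1, of gluconeogenesis, which liver also makes, had 2088 CPM here and 2086 CPM in immortalized library 1. GATM, of creatine synthesis, was lower here (1087 CPM) than in senescent library 2 (2685 CPM). Of the genes that work with megalin and cubilin, AMN, the membrane anchor of cubilin, had 259 CPM against at most 2.01 CPM, and DAB2, the adaptor, 1071 CPM against 503 CPM in Simmental-like primary library 2. LRPAP1, the megalin chaperone, was highest in Simmental-like primary library 1 (289 CPM against 113 CPM here). In all, 3 of 8 of these partners were highest in the library and 1 was at least 10-fold above the rest.

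Of the other thick ascending limb genes, 9 of 12 were highest in the library and 4 were at least 10-fold above the rest. KCNJ1, the potassium channel ROMK, had 109 CPM against at most 0.412 CPM elsewhere. CLDN10, a claudin of this segment, had 109 CPM against 3.48 CPM, CASR, the calcium-sensing receptor, 47.2 CPM against 0.105 CPM, and CLDN16, 46.4 CPM against 0.31 CPM. In the distal convoluted tubule list 9 of 14 genes were highest here, 4 of them at least 10-fold. CALB1 had 2217 CPM against at most 0.284 CPM, FXYD2, a subunit of the sodium pump, 406 CPM against 1.35 CPM, and WNK4, a kinase that acts on NCC, 192 CPM against 7.73 CPM. TMEM52B had 200.2 CPM against 0.852 CPM, and WNK1, which is widely made, had 635 CPM against 234 CPM. PVALB, a marker of the first part of the segment in some species, had 1 count here.

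The collecting duct was carried by both of its cell types. For principal cells, 11 of 14 genes were highest in the library and 6 were at least 10-fold above the rest: HSD11B2, which protects the mineralocorticoid receptor, had 306 CPM against at most 0.644 CPM elsewhere. SCNN1G and SCNN1A, subunits of the epithelial sodium channel, had 156 and 148 CPM. SGK1, an aldosterone-induced kinase that fibroblasts also make, had 327 CPM against 211 CPM in Holstein-like immortalized library 3, and AQP4, the basolateral water channel, had 0.637 CPM, below Holstein-like primary library 2 (6.82 CPM). For intercalated cells, 10 of 11 genes were highest in the library and 6 at least 10-fold: ATP6V1B1 and ATP6V0A4, proton pump subunits, had 477 and 236 CPM, RHCG, an ammonia transporter, 276 CPM, and SLC4A9, a bicarbonate exchanger, 94 CPM, against at most 13.8, 2.09, 0.206 and 0.105 CPM elsewhere. Podocyte genes were mixed, with 6 of 10 highest and 3 at least 10-fold: NPHS1, nephrin, had 42.7 CPM against 0.213 CPM and PTPRO, a podocyte phosphatase, 86.9 CPM against 0.358 CPM. SYNPO, PLA2R1 and CLIC5 were higher in another library, and PODXL, WT1 and NPNT were highest here by less than 10-fold.

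Among transcription factors and epithelial genes of the nephron, 12 of 18 were highest in the library and 4 at least 10-fold. CDH16, a cadherin named for the kidney, had 3538 CPM against at most 6.18 CPM elsewhere, EPCAM 213 CPM against 24 CPM, and KRT8, a keratin of simple epithelia, 120 CPM against 188 CPM in Holstein-like senescent library 3. In the Klotho, phosphate and vitamin D list 6 of 13 genes were highest, 2 of them at least 10-fold: PTH1R, the parathyroid hormone receptor, had 286 CPM against 16 CPM and CYP24A1, which degrades vitamin D, 58.4 CPM against 0.155 CPM. SLC9A3R1, a scaffold that binds NaPi-IIa, had 694 CPM against 329 CPM, and FGFR3 81.1 CPM against 61.7 CPM. SLC20A1, a phosphate transporter of many cell types, was lower here (127 CPM) than in Simmental-like senescent library 2 (260 CPM). FGFR1, the receptor that Klotho joins, was low here at 25.6 CPM, against 264 CPM in Holstein-like immortalized library 3, and FGF23 had 0 counts.

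**Figure D3:**
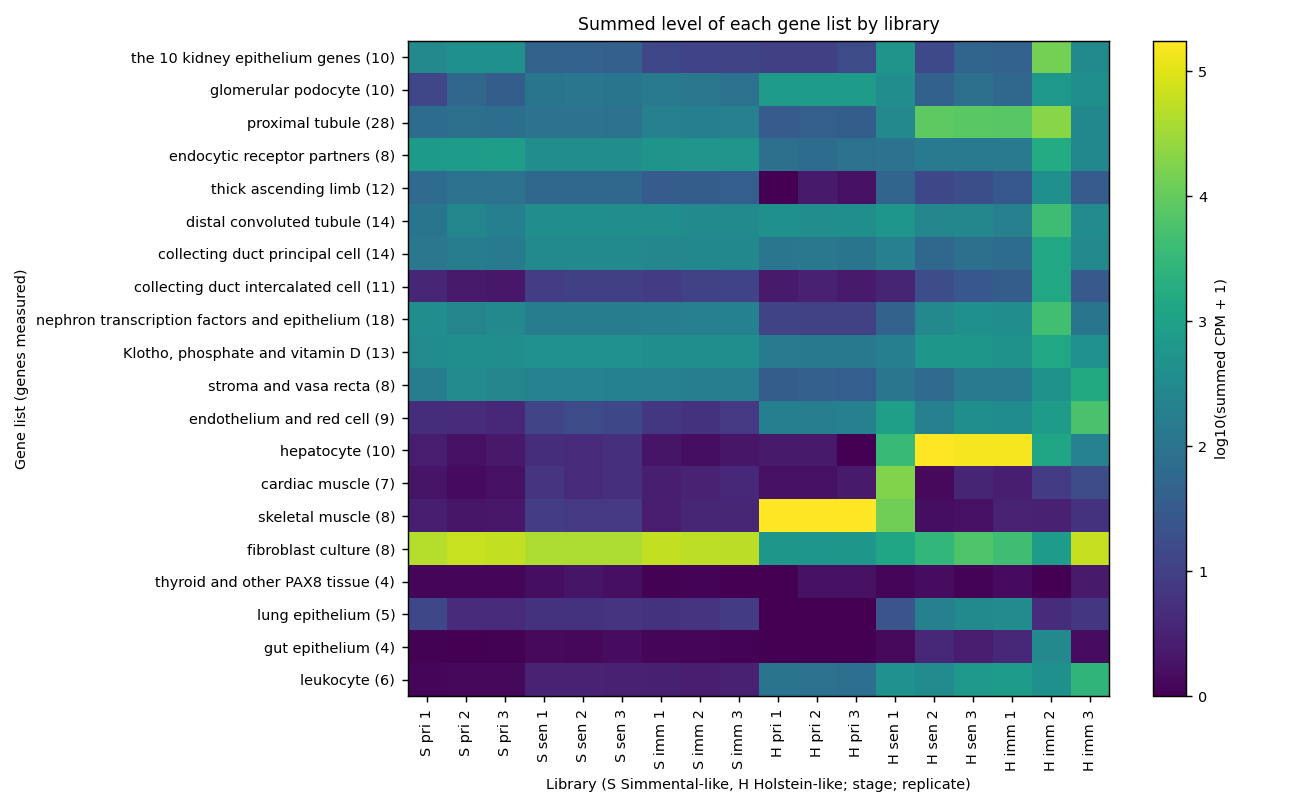
Summed CPM of each gene list (rows, with the number of genes measured) in each of the 18 libraries (columns), coloured by log10 of the summed CPM plus 1. In H imm 2 the 10 kidney epithelium genes and the tubule and duct lists are brighter than in any other library, the skeletal muscle list is brightest in the H pri libraries, the heart muscle list in H sen 1 and the liver list in H sen 2, H sen 3 and H imm 1, and H imm 3 is bright in the fibroblast and endothelium lists.

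Most markers of other organs and vessels were lower than in the libraries that carried them. No gene of the hepatocyte list was highest in Holstein-like immortalized library 2. The list summed to 1244 CPM, of which 1152 CPM came from TF (transferrin), and ALB (albumin) had 11.1 CPM against 81265 CPM in senescent library 2. Cardiac genes summed to 7.10 CPM, skeletal muscle genes to 2.09 CPM and lung genes to 3.64 CPM. In the gut list VIL1, villin, which is also a brush border protein of the proximal tubule, had 294 CPM, while CDX2, SI and FABP2 had 0 counts. The endothelial genes KDR, TEK, PECAM1 and VWF had 296, 173, 169 and 71.6 CPM, each lower than in Holstein-like immortalized library 3, while 1 of 9 genes of that list, HBA, a globin of red cells, was highest here (13.6 against at most 11.7 CPM). The leukocyte list summed to 433 CPM, against 2690 CPM in Holstein-like immortalized library 3. In the list of stroma and vasa recta 2 of 8 genes were highest here. In summed CPM the tubule lists were above those of the other libraries, and the podocyte list was not: proximal tubule 20712 against at most 8838, thick ascending limb 418 against 90.1, distal convoluted tubule 4103 against 561, principal cell 1313 against 319, intercalated cell 1346 against 34, nephron transcription factors and epithelium 4506 against 434, Klotho list 1399 against 596, endocytic partners 1672 against 824 and podocyte 628 against 803 CPM. With TMM scaling some of these gaps changed by more than 1.5 times: proximal tubule 15779 against at most 11613, distal convoluted tubule 3126 against 762, intercalated cell 1025 against 50.9, nephron transcription factors and epithelium 3433 against 562, Klotho list 1066 against 773 and podocyte 478 against 1361 CPM. The sum of the 10 genes was then 10871 against 688 CPM.

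The change of these genes between stages was then tested in the Simmental-like line, whose libraries held at most 4.38, 5.18 and 7.88 CPM of the hepatocyte, cardiac and skeletal muscle lists. The fit was an edgeR quasi-likelihood test on the 9 libraries with Benjamini-Hochberg adjustment, a threshold of 0.05 and values as log2 change ± SE. The SE was worked back from the log2 change and the F statistic. The stages share an estimate of spread in this fit, although senescent libraries varied least and primary ones most, as given above. Of the 10 genes 3 passed the filter on low counts (AQP1, CUBN and PAX8), and all 3 were called in each of the 3 comparisons. Genes called higher and lower made up 28.3% and 29.7% of all genes tested from primary to senescent, 16.4% and 16.1% from senescent to immortalized, and 24.9% and 25.5% from primary to immortalized. The other 7 genes were at counts too low to be tested. MKI67, a gene of dividing cells from the fibroblast list, had means of 231, 414 and 423 CPM in the primary, senescent and immortalized libraries. Its log2 change from primary to senescent was 0.43 ± 0.33 (edgeR adjusted p = 0.287), so it was not lower in the libraries labelled senescent.

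AQP1 fell at each step. It was 379 ± 80.3 CPM (mean ± SD, n = 3) in the primary, 21.1 ± 2.16 CPM in the senescent and 1.92 ± 0.693 CPM in the immortalized libraries. The log2 change was -4.62 ± 0.22 from primary to senescent (edgeR adjusted p = 1.67e-06), -3.30 ± 0.23 from senescent to immortalized (edgeR adjusted p = 2.71e-05) and -7.92 ± 0.27 from primary to immortalized (edgeR adjusted p = 2.52e-07). PAX8 rose at each step, from 0.741 ± 0.258 CPM through 2.06 ± 0.21 to 3.50 ± 0.0932 CPM. Its log2 change was 1.02 ± 0.22 (edgeR adjusted p = 0.00481), then 0.92 ± 0.19 (edgeR adjusted p = 0.0067), and 1.94 ± 0.22 over both (edgeR adjusted p = 0.000119). PAX8 stayed at a few CPM, and the strand setting of the counting is not given in the sources used here, so reads from an antisense gene cannot be told apart.

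CUBN rose from primary to senescent and fell after it. It was 7.78 ± 3.63 CPM in the primary, 19.2 ± 1.04 CPM in the senescent and 5.52 ± 0.319 CPM in the immortalized libraries. Primary libraries, at 3.95, 11.2 and 8.21 CPM, overlapped with immortalized ones, at 5.82, 5.19 and 5.57 CPM. The log2 change was 0.87 ± 0.25 (edgeR adjusted p = 0.017) to senescent and -1.64 ± 0.26 (edgeR adjusted p = 0.00169) from senescent to immortalized. From primary to immortalized it was -0.76 ± 0.26 (edgeR adjusted p = 0.0362), a call that was lost with total-count scaling (edgeR adjusted p = 0.219) and without any 1 of 8 of the 9 libraries (adjusted p up to 0.109). The call to senescent was lost without senescent library 1 (edgeR adjusted p = 0.0547).

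**Figure D4:**
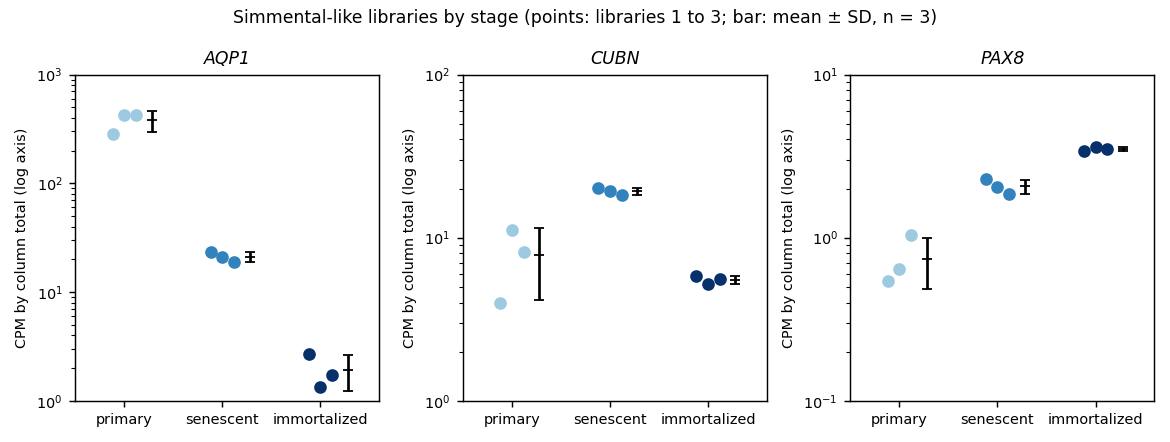
CPM by column total (log axis) of AQP1, CUBN and PAX8 in the 9 Simmental-like libraries by stage, with points for single libraries and a bar for the mean ± SD (n = 3). AQP1 steps down from 379 to 1.92 CPM, PAX8 steps up from 0.741 to 3.50 CPM, and CUBN is highest in the senescent libraries.

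With scaling to total counts instead of TMM, the change of the median gene moved to 0.47 from primary to senescent, -0.16 from senescent to immortalized and 0.30 from primary to immortalized on the log2 scale. Calls higher and lower then became 5955 and 1840, 1505 and 2698, and 4580 and 2098 genes, against 3704 and 3887, 2146 and 2103, and 3264 and 3343 with TMM. The changes of AQP1 and PAX8 kept direction and call.

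Other kidney genes in the Simmental-like libraries moved in both directions. Of the 79 genes measured in the 5 tubule and duct lists, 25 were tested. From primary to senescent 13 rose and 5 fell (28.3% and 29.7% of all genes tested did), with a median log2 change of 0.58 against 0.01 for all genes tested. From senescent to immortalized 2 rose and 7 fell (median -0.51 against -0.00180), and from primary to immortalized 11 rose and 6 fell (median 0.41 against -0.00136). With total-count scaling, which moves the median gene as above, the splits were 16 and 4, 2 and 8, and 11 and 4. Some lists of other cell types also had more calls higher than lower at the first step: endothelium and red cell 3 and 0 of 5 tested, cardiac muscle 2 and 0 of 3, skeletal muscle 2 and 0 of 3, hepatocyte 1 and 0 of 2 and leukocyte 1 and 0 of 1. From senescent to immortalized they had 0 and 3, 0 and 2, 0 and 2, 0 and 1, and 0 and 0. Others did not at the first step: fibroblast culture had 1 and 6 of 8, stroma and vasa recta 1 and 3 of 4 and lung epithelium 0 and 0 of 1. Some of the genes called higher were near 0 counts in the primary libraries and passed the filter only through a later stage, which largely fixed their direction. SLC8A1, of the distal convoluted tubule list, rose by 7.70 ± 0.54 from a mean of 0.0181 to 6.15 CPM. NPPB, of the cardiac list, rose by 6.10 ± 0.56 from 0.0165 to 2.02 CPM. Nothing particular to the kidney lists, and no direction of any list, is read from these counts. SLC13A3 rose by 2.94 ± 0.29 to senescent and fell by 3.61 ± 0.31 after it, and SGK1 rose by 1.39 ± 0.09 to senescent. The SLC13A3 means were 0.719, 7.61 and 0.552 CPM in the primary, senescent and immortalized libraries. Of the megalin and cubilin partners tested in the Simmental-like line, DAB2 fell by 2.47 ± 0.10 to senescent and rose by 1.01 ± 0.10 to immortalized, while CLCN5, a chloride transporter of endosomes, rose by 1.80 ± 0.40 and fell by 1.39 ± 0.39. Of the 6 partners tested, 1 rose and 3 fell to senescent, 2 rose and 1 fell after it, and 0 rose and 3 fell over both. Among nephron transcription factors, PAX2, a relative of PAX8, rose by 3.32 ± 0.29 to senescent, from a mean of 0.309 to 4.44 CPM. EMX2 fell by 2.53 ± 0.27, from a mean of 115 to 28.5 CPM. Of the 9 tested in that list 5 rose and 3 fell at this step. In the Klotho list SLC9A3R1 rose by 1.22 ± 0.19 from senescent to immortalized, and PTH1R fell by 1.92 ± 0.46 to senescent and rose by 4.38 ± 0.35 after it. PTH1R means were 0.298, 0.103 and 2.01 CPM in the primary, senescent and immortalized libraries. Its senescent mean was under the 3-count floor of those libraries (0.145 to 0.158 CPM), so both changes rest on very few senescent counts. Of the 8 tested in the Klotho list 3 rose and 2 fell to senescent, 3 rose and 2 fell after it, and 4 rose and 4 fell over both. These small counts are to be read against the shares of all genes called, 28.3% and 29.7%, 16.4% and 16.1%, and 24.9% and 25.5%.

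The same test in the Holstein-like line had 4 of the 10 genes to test (AQP1, LRP2, CUBN and PAX8), and edgeR called 0 of them in any comparison. DESeq2 called AQP1 from primary to senescent and from primary to immortalized, where it called 4453 of 12559 and 5470 of 13173 genes tested. With edgeR, genes called made up 9.31% higher and 5.9% lower of all genes tested from primary to senescent, 0.0% in either direction from senescent to immortalized, and 15.3% and 8.73% from primary to immortalized. With total-count scaling, calls higher and lower became 1707 and 409 from primary to senescent and 4778 and 545 from primary to immortalized, against 1239 and 785 and 2036 and 1162. From senescent to immortalized, where edgeR called 0 of 13312 genes and 972 had an unadjusted p under 0.05, DESeq2 called 110. At that step the unadjusted p of CUBN was 0.037, the only one of the 4 under 0.05, and its edgeR adjusted p was 0.652. From primary to immortalized all 4 were under 0.05 unadjusted, with edgeR adjusted p of 0.0621 to 0.0894. From primary to senescent 0 of 4 were. Both comparisons with the immortalized stage rest on the library that the genes were chosen on, so nothing is read from them. Without Holstein-like immortalized library 2, the log2 change from senescent to immortalized was -0.91 for AQP1 (edgeR adjusted p = 0.931) and -2.63 for LRP2 (edgeR adjusted p = 0.674). From primary to senescent the adjusted p was 0.151 for AQP1 and between 0.24 and 0.539 for the other 3 genes.

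The difference between the lines was tested as an interaction over the 18 libraries, where 28.4%, 2.07% and 32.4% of genes tested were called for the change to senescent, from senescent to immortalized and from primary to immortalized. The second and the third include Holstein-like immortalized library 2, so nothing is read from the 10 genes in them. In the first, AQP1 was the only one of the 4 genes tested that was called. In the Simmental-like line AQP1 fell from a mean of 379 CPM in the primary to 21.1 CPM in the senescent libraries. The Holstein-like senescent libraries had 500, 9.53 and 45.6 CPM of AQP1, against 8.91, 8.86 and 14.7 CPM in the primary ones. The log2 difference of the changes was 8.43 ± 1.86 (edgeR adjusted p = 0.00429), and 8.28 (edgeR adjusted p = 0.0899) with the 3 near-identical Holstein-like primary libraries summed into 1. Without Holstein-like senescent library 1 it was 5.56 (edgeR adjusted p = 0.00745). The heart muscle list stood at 18197 CPM in Holstein-like senescent library 1, where AQP1 was highest at that stage, and the liver list led in the other senescent libraries. The part of these organ transcripts in the difference was not tested.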

How the data were processed

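RNA was measured in 18 libraries of cattle cells. Per the labels' protocols, total RNA was prepared with an RNeasy mini kit and libraries with a NEBNext Ultra II kit, and reads were single NextSeq reads. The genome build was UMD 3.1, per the submitters' processing notes. The authors deposited 1 table of expected counts per gene, which by its file name is merged output of salmon. Neither the release of salmon nor the annotation, the strand setting or an aligner is stated in these sources. Reads that fit several genes may be split between them. All 18 columns were used.

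Expected counts were rounded. CPM is by column total, so a few genes that take a large share of a library lower the others, and TMM scaling was the alternative. The 9 libraries of each line were fitted together in R 4.3.3 with edgeR 4.0.16 (TMM, filterByExpr by group, robust quasi-likelihood F-test, Benjamini-Hochberg threshold 0.05), and the difference between lines on all 18. Alternatives were RLE and total-count scaling, no filter, DESeq2 1.42.0, a replicate block and leaving out libraries in turn. Alternatives chosen after seeing the data were summing near-identical libraries, leaving each library out of the fit over both lines, the count without the Holstein-like primary libraries, and 5-fold and 20-fold thresholds. The labels call replicates biological and do not say whether cultures were separate, so p-values reflect only how these libraries vary, which may be technical.

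The 10 genes, 19 gene lists (207 of 222 symbols, those of the 10 genes included, were found) and tests were chosen with earlier results of these data known. Named are the 10 genes in every library, up to 4 genes per list with the highest CPM in Holstein-like immortalized library 2 and any gene of a list of at most 10 genes, the 10 genes with the highest share of their CPM in that library, and those that passed the filter. SLC22A6, DPEP1, SLC5A12, SLC5A2, GATM, WNK4, PVALB, AQP4, CYP24A1, FGFR1, FGF23, HBA and, in the Simmental-like fit, the list genes given with their change were named after their values were seen. Some list genes are not reported here. Lengths of transcripts and promoter sequences of this build were not used here, so levels are not compared between genes and motifs were not analysed. On simulated data the Simmental-like senescent to immortalized comparison (12844 genes) recovered 91 of 100 genes changed 4-fold and 32 of 100 changed 2-fold, with 10 false calls, and the Holstein-like one (12998 genes) recovered 0 of 100.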

Additional observations from a re-analysis of the deposited data

Results flagged for a closer look

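An interaction term between line and stage in edgeR was called for AQP1 from primary to senescent, and for AQP1 and CUBN from primary to immortalized. CUBN was not called from primary to senescent (edgeR adjusted p = 0.6335). For AQP1 the Holstein-like change minus the Simmental-like change was 8.43 on the log2 scale from primary to senescent (adjusted p = 0.00429). With the 3 Holstein-like primary libraries summed into 1 it was no longer called (8.28, adjusted p = 0.0899).

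The other 2 values, from primary to immortalized, rest on Holstein-like immortalized library 2, on which the genes were chosen, so they are a description with no test. The fitted difference was 13.6 for AQP1 and 17 for CUBN. The Holstein-like immortalized libraries had 40.3, 3168 and 310 CPM of AQP1 and 1.85, 2201 and 2.00 CPM of CUBN. Without that library the differences were 11 for AQP1 (edgeR adjusted p = 0.000304) and 8.95 for CUBN (edgeR adjusted p = 0.0399). Both p-values count the 3 near-identical Holstein-like primary libraries as separate. The other Holstein-like immortalized libraries, at 1.85 and 2.00 CPM of CUBN, lay under the 3-count floor of the primary ones (2.05 to 2.11 CPM). Nothing is read from the CUBN call. All 3 Holstein-like primary libraries had 0 counts of CUBN, so its fitted values depend on the prior count and are no bounds. The organ transcripts that differ between the Holstein-like libraries move with all 3 differences, and their part in them was not tested.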

How the results depend on the processing

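The Simmental-like calls of AQP1 and PAX8 held under every alternative run, and those of CUBN did not (values in the report). With the replicate number as a block, the CUBN change from primary to immortalized was no longer called (-0.73, adjusted p = 0.0771), nor was it with senescent libraries 1 and 2 summed (-0.76, adjusted p = 0.058). Deviations of same-numbered libraries from their stage means had correlations of -0.499 to 0.182 in the Simmental-like line, with 3 of 9 above 0.1. In the Holstein-like line they were -0.583 to 0.0179, with 0 of 9 above 0.1. Deviations from means of 3 libraries cannot show whether libraries were paired, so the block says nothing of pairing. With the block, Holstein-like calls were 303 from primary to senescent and 1109 from primary to immortalized, the lines differed in 98 genes from senescent to immortalized, and 1 of the 10 kidney epithelium genes, not 2, differed between lines from primary to immortalized.

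In the main Holstein-like fit and the fit over both lines, 4 of the 10 genes were tested. Comparisons with the immortalized stage rest on the library that the genes were chosen on, so nothing is read from counts of the 10 there. With DESeq2, Holstein-like calls were 4453, 110 and 5470 of 12559, 12863 and 13173 genes tested. AQP1, 1 of the 10, was called from primary to senescent and from primary to immortalized. With total-count scaling Holstein-like calls were 5323 of 13312 genes, and 3 of the 4 tested of the 10, from primary to immortalized. With the Holstein-like primary libraries summed into 1, they were 0 genes against primary, the lines differed in 1976, 202 and 2537 genes, and 0 and 1 of the 10 differed from primary to senescent and to immortalized. Leaving out 1 library, the Simmental-like calls from senescent to immortalized were 2888 to 7793 (the highest without primary library 1). Holstein-like calls were 143 to 3545, 0 to 5 and 417 to 4217 of 13485 to 13944 genes tested, with 0 to 1 of the 10 from primary to immortalized. From primary to senescent they were 3545 without senescent library 1 and 143 to 154 without a primary one. The lines differed from senescent to immortalized in 39 to 1352 of 15012 to 15371 genes tested and 0 to 3 of the 10. The number of genes at least 10-fold higher in Holstein-like immortalized library 2 was 281 without the Holstein-like primary libraries, 304 at 5-fold and 111 at 20-fold.

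From senescent to immortalized, the Holstein-like change reversed without Holstein-like immortalized library 2 for AQP1 (-0.91) and LRP2 (-2.63), and with the block for LRP2 (-1.09). Over all libraries left out these changes ranged up to 4.77 and 9.28. The difference between lines reversed without that library for LRP2 (-0.40) and PAX8 (-0.53), and ranged up to 11.5 and 2.36. The cause of these changes was not tested. The depth of the Holstein-like primary libraries limits ratios to a floor of 2.11 CPM.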
